A study of Mus musculus with 6 samples.

Results

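The 50 genes described here encode Wnt ligands, the enzyme that acylates them, their receptors and secreted antagonists, the R-spondin system, and transducers and targets of the pathway. They were listed by name, with earlier results of these data known. Of them, 49 were read by an array probe set annotated with a single gene symbol, among 22180 such genes in all. No such probe set named Tcf7, so this TCF/LEF factor was not analysed here. Each RNA sample was taken from a whole inguinal mammary gland of C57BL/6J mice aged 4 weeks, around the onset of puberty. In 3 stromal knockout glands, labelled Dermo1Cre/Mt1-mmp(fl/fl), a Cre recombinase driven from the Dermo1 locus, which is active in mesenchymal cells, was combined with floxed Mt1-mmp, the gene now named Mmp14, a membrane-bound matrix metalloproteinase. The 3 wild-type glands, labelled Mt1-mmp(+/+), came from littermates. The labels name Dermo1Cre only together with the floxed alleles, so Cre itself and the loss of Mmp14 cannot be told apart. They do not say whether the wild-type mice carried Cre, or whether a replicate is 1 mouse or a pool.

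Wnt proteins are secreted, lipid-modified signals that bind Frizzled receptors. With the co-receptors Lrp5 and Lrp6 they stabilise beta-catenin, which switches on target genes together with TCF/LEF factors. With receptors such as Ror1 and Ror2 they act on cell shape and polarity without beta-catenin. R-spondins, through Lgr receptors, protect Frizzled proteins from removal by the ubiquitin ligases Znrf3 and Rnf43. In the mouse mammary gland, Wnt4 relays the progesterone signal, and Wnt ligands and R-spondins made by epithelium and stroma act on ductal growth and on basal stem cells.

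Promoter sequence was read for the 33 genes with a RefSeq entry (GRCm38.p6), as the 250 bases before each start site, 43 windows in all because 7 genes have several. The 33 include Tcf7. The windows of 4 genes that fell or rose and of Dkk1, which did not pass, are shown as examples with many, few or no matches to the letters searched. Capitals mark GC boxes (GGGCGG, or CCGCCC for the other strand) in the first 4 and TCF/LEF letters (CTTTGAA, also with its last pair of letters as in CTTTGAT, as in CTTTGTA and as in CTTTGTT, on both strands) in Dkk1.
Ror2 (chr13:53286125-53286374, minus strand): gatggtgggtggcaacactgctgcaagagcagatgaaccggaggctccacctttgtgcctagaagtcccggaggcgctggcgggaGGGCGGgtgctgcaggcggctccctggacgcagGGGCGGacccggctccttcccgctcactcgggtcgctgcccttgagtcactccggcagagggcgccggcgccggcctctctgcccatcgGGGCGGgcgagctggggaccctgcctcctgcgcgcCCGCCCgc
Wnt4 (chr4:137277385-137277634, plus strand): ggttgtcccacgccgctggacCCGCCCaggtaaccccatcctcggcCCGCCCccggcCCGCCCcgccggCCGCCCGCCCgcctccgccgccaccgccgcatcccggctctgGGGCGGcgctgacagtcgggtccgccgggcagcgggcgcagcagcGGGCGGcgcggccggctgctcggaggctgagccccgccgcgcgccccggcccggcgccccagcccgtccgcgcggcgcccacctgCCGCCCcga
Sfrp2 (chr3:83766071-83766320, plus strand): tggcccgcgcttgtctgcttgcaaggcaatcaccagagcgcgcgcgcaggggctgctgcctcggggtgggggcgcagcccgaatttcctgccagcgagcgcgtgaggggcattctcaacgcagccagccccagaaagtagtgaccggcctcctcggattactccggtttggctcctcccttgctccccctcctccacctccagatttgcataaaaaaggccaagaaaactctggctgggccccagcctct
Fzd4 (chr7:89404116-89404365, plus strand): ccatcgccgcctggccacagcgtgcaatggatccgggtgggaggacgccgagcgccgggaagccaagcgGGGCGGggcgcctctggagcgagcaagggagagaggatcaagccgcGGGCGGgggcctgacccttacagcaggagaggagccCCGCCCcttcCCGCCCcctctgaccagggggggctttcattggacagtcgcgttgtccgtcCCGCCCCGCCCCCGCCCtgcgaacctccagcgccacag
Dkk1 (chr19:30549497-30549746, minus strand): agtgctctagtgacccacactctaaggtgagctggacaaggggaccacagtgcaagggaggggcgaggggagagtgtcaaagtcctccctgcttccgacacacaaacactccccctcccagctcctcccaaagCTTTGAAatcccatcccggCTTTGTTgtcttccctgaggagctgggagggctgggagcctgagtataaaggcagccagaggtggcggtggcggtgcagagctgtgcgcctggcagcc
The TCF/LEF letters occurred in at least 1 window of 6 of the 33 genes (18.2%), beside 14.9% of 16990 measured genes. By window they occurred in 6 of 43 (14.0%), beside 14.8% of all windows. They were in 0 of 11 genes that fell, in 0 of 2 that rose and in 6 of 19 that did not pass, which were Fzd7, Lef1, Wnt5b, Wnt11, Dkk1 and Tcf7l2. GC boxes occurred in 22 of the 33 genes (66.7%), beside 46.2% of measured genes, and in 6 of the 11 that fell. Ror2 held 4 of them, Wnt4 held 8, Fzd4 held 7 and Sfrp2 held 0. Overlapping matches were each counted. These are matches of letters in a window, not sites.

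Mmp14, read by probe set 17300279, measured 8.57, 8.55 and 8.75 log2 units in the knockout arrays, against 11.18, 10.55 and 10.90 in the wild-type arrays. It fell to 21.0% of the wild-type level (-2.25 ± 0.17 log2 units, SE; limma adjusted p = 0.000454). The groups did not overlap, with p = 0.1 in a two-sided exact permutation test, which cannot go lower with 3 arrays a group. Twist2, the gene also named Dermo1, measured 4.12, 3.49 and 3.97 in the knockout, against 4.77, 3.95 and 4.26 in wild type, with overlapping groups (-0.47 ± 0.24, adjusted p = 0.277). Array medians lay between 3.77 and 3.89, and correlations over all genes were 0.990 to 0.992 within groups and 0.975 to 0.983 between them. All levels below are deposited log2 signals, differences are stromal knockout minus wild type with the moderated standard error, and a gene was called at a limma adjusted p under 0.05 over all genes.

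Of the 49 measured genes, 17 fell and 2 rose in the stromal knockout, while 30 did not pass the test. The falls include Fzd10, whose signal is too low in both groups for its change to be read. Falls thus made up 34.7% of these genes, beside 7.20% of all genes, and rises 4.08%, beside 5.05% of all genes. Because the list was chosen with earlier results of these data known, these shares only describe it. Calls in either direction covered 12.2% of all genes. Differences were negative for 36 of the 49, with a median of -0.28 beside 0.03 for all genes. The share of all genes with a negative difference was not counted, nor was that with an unadjusted p under 0.05. Such counts, here and below, therefore stand without that comparison. A fall of at least 2-fold was called for 10 of the 49 genes, beside 3.07% of all genes. The groups did not overlap for 25 of them (51.0%), beside 32.7% of all genes. The mean level of 42 genes reached the 33rd percentile of gene levels (2.68), and among genes above that level 16 of the 42 fell, beside 12.5%. Without wild type 1 the falls numbered 10, beside 4.37% of all genes. Without any 1 array other than knockout 2 the rises numbered 1.

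**Figure D1:**
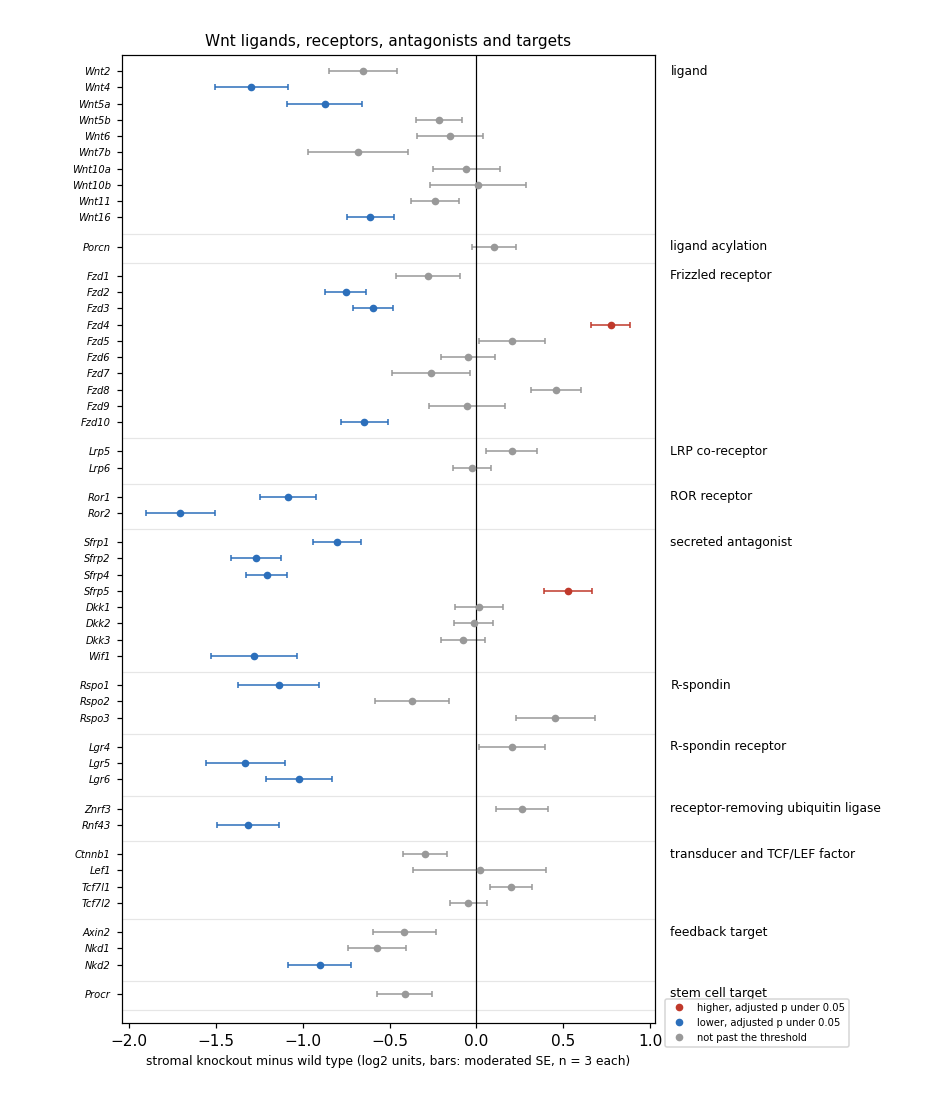
Difference between stromal knockout and wild type (horizontal axis, log2 units) for the 49 measured Wnt genes, grouped by role; points are fitted differences and bars the moderated standard error (n = 3 arrays each). Blue points (17 genes, Fzd10 at unreadably low signal among them) fell, red points (Fzd4 and Sfrp5) rose, and grey points did not pass the test.

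Several kinds of cell marked by fixed gene lists differed between the same glands. These lists were also chosen with earlier results of these data known. Luminal epithelial markers fell in 8 of 8 genes, and their mean level was 5.36 to 5.67 in knockout arrays, against 7.82 to 8.04 in wild-type arrays. Basal epithelial markers fell in 8 of 9 genes (mean level 3.79 to 4.13 in knockout arrays, against 5.59 to 6.05 in wild-type arrays), and the keratin Krt14 was under the 33rd percentile in the knockout. Fibroblast markers fell in 4 of 10 genes, with mean levels of 9.94 to 10.16 in knockout arrays, against 10.52 to 10.80 in wild-type arrays. Endothelial markers rose in 3 of 10 genes (8.18 to 8.68 in knockout, against 7.87 to 8.02 in wild type), and white adipocyte markers in 3 of 9 (10.71 to 10.85 in knockout, against 10.42 to 10.48 in wild type). Thermogenic adipocyte markers rose in 6 of 10 genes (7.79 to 8.33 in knockout, against 5.69 in wild type 1, 7.14 in wild type 2 and 6.47 in wild type 3). Of this list, Elovl3 (-0.67) and Dio2 (-0.65) had negative differences without passing. Macrophage markers fell in 6 of 10 genes (7.97 to 8.06 in knockout, against 8.44 to 8.75 in wild type). Beside these counts, 7.20% of all genes fell and 5.05% rose. Skeletal muscle markers averaged 3.55 to 3.83 in knockout arrays, against 6.22 in wild type 1, 4.24 in wild type 2 and 3.61 in wild type 3, and 0 of 10 passed the test, with 2 lower and 1 higher at an unadjusted p under 0.05. The part of these lists in the Wnt results was not tested. In whole tissue, fewer cells of a type and less RNA per cell cannot be told apart.

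**Figure D2:**
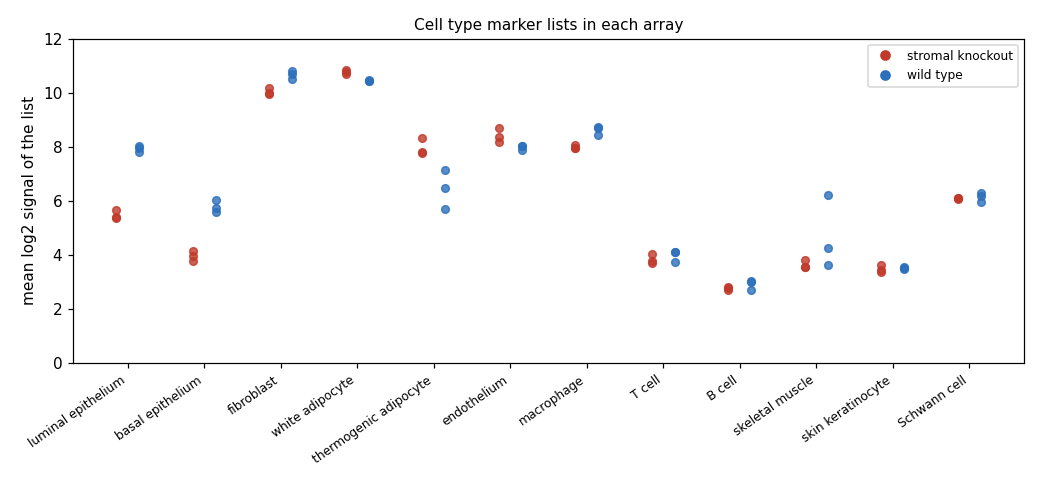
Mean log2 signal of each fixed marker list (vertical axis) in each array, with stromal knockout (red) left of wild type (blue); each point is 1 array. The luminal list lay at 5.36 to 5.67 in the knockout, against 7.82 to 8.04 in wild type, and wild type 1 stood at 6.22 for skeletal muscle.

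Among the 10 ligands, 3 fell by limma (30%, beside 7.20% of all genes) and 0 rose (beside 5.05%). At an unadjusted p under 0.05, 5 ligands were lower and 0 higher, and 9 differences were negative. Wnt4, the ligand downstream of progesterone in luminal cells, measured 3.52, 3.59 and 4.21 in the knockout arrays, against 4.95, 4.93 and 5.32 in the wild-type arrays. The groups were well separated, with a fall to 40.7% of wild type (-1.30 ± 0.21, adjusted p = 0.00791). Wnt5a, a ligand of Ror receptors that restrains ductal branching in mouse, measured 5.44, 5.91 and 6.20 in the knockout, against 6.83, 6.90 and 6.44 in wild type. It fell by 0.87 ± 0.22 (adjusted p = 0.0369), a narrow separation that did not pass when wild type 1, wild type 2, knockout 1 or knockout 2 was left out (adjusted p 0.0794 to 0.119). The call also ended with arrays blocked by replicate number (adjusted p = 0.0737). Wnt16 measured 2.19, 2.24 and 2.21 in the knockout, against 3.07, 2.65 and 2.75 in wild type. Its knockout level lies under the 33rd percentile and its wild-type mean (2.82) just above it. The size of the fall of 0.61 ± 0.14 (adjusted p = 0.0269) is therefore uncertain. Leaving out any array but wild type 2 ended the call (adjusted p 0.0630 to 0.0771), as did blocking the arrays by replicate number (0.0622).

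The remaining 7 ligands did not pass. Wnt2, a ligand known from mammary stroma, measured 4.48, 3.88 and 4.53 in the knockout, against 5.15, 4.83 and 4.87 in wild type. Its groups did not overlap, yet the difference of -0.65 ± 0.19 had an adjusted p of 0.0695. Of the alternatives, it passed only with array weights (-0.75, adjusted p = 0.0483). Wnt7b, known from ductal epithelium, measured 2.50, 1.96 and 2.28 in the knockout, against 3.07, 3.44 and 2.27 in wild type. Wild type 3 lay among the knockout arrays, and the difference was -0.68 ± 0.29 (adjusted p = 0.183), or -1.01 without wild type 3 (adjusted p = 0.0355). The knockout mean of Wnt7b (2.24) lies under the 33rd percentile, so the size of either difference is uncertain. Wnt5b (-0.22), Wnt11 (-0.24), Wnt6 (-0.15), Wnt10a (-0.06) and Wnt10b (0.01) had overlapping groups. For Wnt6 and Wnt10a both group means lie under the 33rd percentile, where a change cannot be read. Porcn, the enzyme that attaches the lipid all Wnt ligands need, differed by 0.10 with a 95% interval of -0.19 to 0.40. Its arrays read 7.15, 7.24 and 6.99 in the knockout, against 6.92, 6.97 and 7.18 in wild type.

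Of the 14 receptor genes, 5 fell (35.7%, beside 7.20% of all genes) and 1 rose (7.14%, beside 5.05%). Both Ror receptors and 3 of the 10 Frizzled genes fell, Fzd4 rose, and neither Lrp co-receptor passed. Differences between these families were not tested. Ror2, a receptor tyrosine kinase-like protein for Wnt5a, had the largest difference of the 49 genes. It measured 5.58, 5.32 and 4.97 in the knockout arrays, against 7.28, 6.73 and 6.98 in the wild-type arrays, a fall to 30.7% (-1.71 ± 0.20, adjusted p = 0.00219). Every knockout array lay more than a log2 unit under every wild-type array. Ror1, its close relative, measured 6.08, 6.33 and 6.57 in the knockout, against 7.50, 7.20 and 7.54 in wild type. It fell to 47.1% of wild type (-1.09 ± 0.16, adjusted p = 0.00609). In the same arrays the median difference was -0.52 for the fibroblast list, -2.45 for the luminal list and -1.88 for the basal list. Of the 10 fibroblast genes 4 fell, among them Pdgfra (-1.03) and Thy1 (-1.64), while others such as Col1a1 (-0.27) and Dcn (-0.29) did not pass. The part of any of these lists in the Ror falls was not tested.

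Fzd4, a receptor for Wnt ligands and for norrin that serves vessel growth in the retina, rose. It measured 10.05, 10.24 and 10.14 in the knockout arrays, against 9.42, 9.31 and 9.39 in the wild-type arrays. The 1.71-fold rise (0.77 ± 0.11, adjusted p = 0.00524) was far larger than the spread within either group, and it passed in each alternative that did not require a 2-fold change. Of the 10 endothelial markers, Kdr (0.85), Tie1 (0.67) and Cldn5 (1.31) rose in the same glands, Emcn (-0.32) and Tek (-0.09) had negative differences without passing, and the median of the list was 0.48. The white adipocyte list had a median of 0.29 and the thermogenic adipocyte list 1.91. The part of any of these lists in the Fzd4 rise was not tested. Norrin itself (Ndp) measured 3.63, 3.37 and 3.42 in the knockout, against 4.09, 3.97 and 4.33 in wild type. It fell by 0.65 ± 0.14 (adjusted p = 0.0214), a call that ended with wild type 1, wild type 3, knockout 2 or knockout 3 left out (adjusted p 0.0570 to 0.0797), while Tspan12, a partner of the Fzd4 receptor complex, differed by 0.38 (adjusted p = 0.156).

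Fzd2 measured 5.44, 5.51 and 5.65 in the knockout, against 6.30, 6.38 and 6.19 in wild type, and Frizzled proteins of its kind also carry Wnt5a signals. It fell by 0.75 ± 0.12 (adjusted p = 0.00723) with groups tightly apart. Fzd3, a receptor with roles in planar polarity, measured 5.45, 5.26 and 5.46 in the knockout, against 6.00, 6.02 and 5.93 in wild type. It fell by 0.59 ± 0.11 (adjusted p = 0.0150), a call lost without wild type 1 (adjusted p = 0.0545) or knockout 2 (adjusted p = 0.0619), or with arrays blocked by replicate number (0.0515). Fzd10 measured 1.38, 1.32 and 1.46 in the knockout, against 1.91, 1.92 and 2.27 in wild type. It passed (-0.64 ± 0.14, adjusted p = 0.0214), but both group means lie under the 33rd percentile, where a change cannot be read. Leaving out wild type 3, or knockout 1 or 2, ended the call (adjusted p 0.0578 to 0.0786).

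Fzd8 measured 5.28, 5.20 and 5.54 in the knockout, against 4.81, 4.76 and 5.07 in wild type. The groups did not overlap, but the difference of 0.46 ± 0.14 did not pass (adjusted p = 0.0804), except with arrays centred on their medians (0.55, adjusted p = 0.0442). Fzd1 measured 6.86, 7.31 and 7.42 in the knockout, against 7.73, 7.39 and 7.31 in wild type, a difference of -0.28 with overlapping groups. Fzd7, a receptor of mammary basal cells, differed by -0.26 ± 0.23, and by -0.54 without wild type 2 (adjusted p = 0.0404). Fzd5 (0.20), Fzd6 (-0.05) and Fzd9 (-0.05) also overlapped. The Fzd9 means (2.52 in the knockout, 2.58 in wild type) lie under the 33rd percentile, where a change cannot be read. Lrp6 read 10.03, 9.99 and 10.04 in the knockout, against 9.98, 10.01 and 10.14 in wild type, with a 95% interval of the difference from -0.28 to 0.23. Lrp5 read 8.23, 8.51 and 8.55 in the knockout, against 8.30, 8.03 and 8.36 in wild type, with an interval from -0.13 to 0.54.

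**Figure D3:**
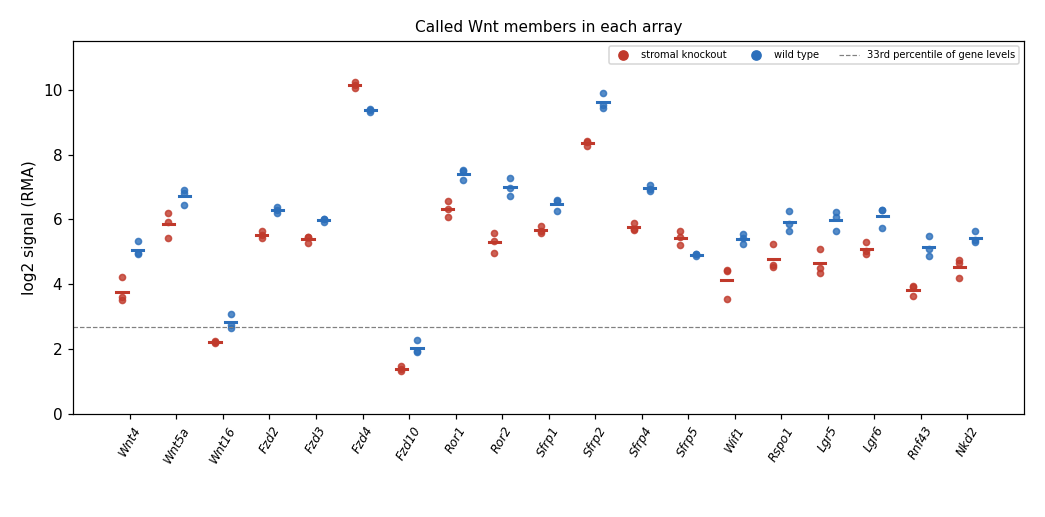
Log2 signal (vertical axis) of the 19 called Wnt genes in each array, stromal knockout (red) left of wild type (blue); points are arrays, bars group means, and the dashed line is the 33rd percentile of gene levels (2.68). Ror2 lay at 4.97 to 5.58 in the knockout, against 6.73 to 7.28 in wild type, while Fzd4 and Sfrp5 were higher in the knockout.

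The secreted antagonists included falls, a rise and genes without a call. Of 8, 4 fell (50%, beside 7.20% of all genes), 1 rose (12.5%, beside 5.05%) and the 3 Dickkopf genes did not pass. Secreted Frizzled-related proteins resemble the ligand-binding domain of Frizzled and bind Wnt outside the cell. Sfrp2, which fibroblasts express strongly, measured 8.43, 8.38 and 8.28 in the knockout, against 9.90, 9.55 and 9.45 in wild type. It fell to 41.5% of wild type (-1.27 ± 0.15, adjusted p = 0.00208), and a second probe set of the gene differed by -0.47 without passing when each probe set was tested (adjusted p = 0.147). Sfrp4 measured 5.87, 5.68 and 5.70 in the knockout, against 6.95, 6.87 and 7.06 in wild type. It fell to 43.3% (-1.21 ± 0.12, adjusted p = 0.00115), the lowest adjusted p of the 49 genes, with little spread in either group. Sfrp1 measured 5.79, 5.57 and 5.65 in the knockout, against 6.59, 6.58 and 6.25 in wild type, a fall of 0.80 ± 0.14 (adjusted p = 0.0101).

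Sfrp5, the family member known as an adipokine, ran the other way. It measured 5.45, 5.21 and 5.65 in the knockout, against 4.92, 4.88 and 4.92 in wild type. The 1.44-fold rise (0.53 ± 0.14, adjusted p = 0.0454) did not pass when any single array was left out, knockout 2 excepted (adjusted p 0.106 to 0.114). Nor did it pass with an intensity trend (adjusted p = 0.0549), a robust trend (0.0589), array weights (0.0615) or arrays blocked by replicate number (0.0791). Of the 9 white adipocyte markers, Plin1 (0.66), Cebpa (0.74) and Lipe (0.56) rose in the same arrays, the other differences lay between -0.15 (Lep) and 0.46 (Pparg) without passing, and the median of the list was 0.29. The endothelial list had a median of 0.48 and the thermogenic adipocyte list 1.91, and the part of any list in the Sfrp5 result was not tested.

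Wif1, which binds Wnt proteins through its own domain, measured 4.42, 3.53 and 4.43 in the knockout, against 5.56, 5.24 and 5.42 in wild type. Knockout 2 was lower than the others, and the fall of 1.28 ± 0.25 (adjusted p = 0.0152) did not pass with wild type 1 left out (adjusted p = 0.0635) or wild type 3 left out (adjusted p = 0.0524). Dkk1 and Dkk2, which block Wnt by binding Lrp5 and Lrp6, differed by 0.02 (95% interval -0.30 to 0.33) and -0.02 (interval -0.27 to 0.24). Dkk2 read 4.58, 4.52 and 4.51 in the knockout, against 4.62, 4.60 and 4.43 in wild type. Dkk1 read 2.94, 2.96 and 3.21 in the knockout, against 2.92, 3.20 and 2.94 in wild type. Dkk3, a divergent relative, read 5.86, 6.08 and 6.11 in the knockout, against 6.18, 5.95 and 6.15 in wild type. All 3 Dickkopf genes had overlapping groups.

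Of the 8 R-spondin ligands, receptors and ubiquitin ligases, 4 fell by limma (50%, beside 7.20% of all genes) and 0 rose (beside 5.05%). At an unadjusted p under 0.05 the counts were also 4 and 0. Rspo1, an R-spondin made by hormone-responsive luminal cells in mouse, measured 4.52, 5.23 and 4.59 in the knockout, against 5.87, 6.27 and 5.63 in wild type. It fell to 45.4% of wild type (-1.14 ± 0.23, adjusted p = 0.0191), a call lost without wild type 1 or 2 or knockout 1 or 3 (adjusted p 0.0548 to 0.0632). Rspo2 read 1.91, 2.44 and 2.39 in the knockout, against 2.28, 2.97 and 2.60 in wild type, levels under the 33rd percentile in both group means (-0.37 ± 0.21). Rspo3 read 3.50, 3.83 and 2.99 in the knockout, against 2.79, 3.26 and 2.89 in wild type, a difference of 0.46 ± 0.23 (adjusted p = 0.256) with overlapping groups.

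Lgr5, a receptor and Wnt target that marks basal cells near the nipple in mouse, measured 5.10, 4.50 and 4.35 in the knockout, against 6.06, 5.65 and 6.22 in wild type. It fell to 39.7% (-1.33 ± 0.23, adjusted p = 0.00972). A second probe set annotated to Lgr5 did not show this, at 3.39, 3.10 and 3.10 in the knockout, against 3.20, 3.38 and 3.40 in wild type (-0.13, adjusted p = 0.605 when each probe set was tested). Lgr6, which marks luminal and basal progenitors in mouse, measured 4.92, 5.02 and 5.31 in the knockout, against 6.30, 5.73 and 6.29 in wild type. It fell by 1.02 ± 0.19 (adjusted p = 0.0127), a call lost without wild type 1 (adjusted p = 0.0536). Lgr4, the more widely expressed relative, read 8.04, 7.70 and 7.41 in the knockout, against 7.29, 7.53 and 7.73 in wild type (0.20, interval -0.24 to 0.64).

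The 2 ubiquitin ligases, which share a function and are both Wnt targets, gave differences of opposite sign. Rnf43 measured 3.91, 3.63 and 3.95 in the knockout, against 5.49, 4.88 and 5.07 in wild type, a fall to 40.1% (-1.32 ± 0.18, adjusted p = 0.00412). Znrf3 read 5.72, 5.99 and 5.81 in the knockout, against 5.80, 5.34 and 5.60 in wild type. Its difference of 0.26 ± 0.15 did not pass (adjusted p = 0.325), and its groups overlapped.

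Of the 4 measured transducers and TCF/LEF factors, 0 passed the limma test, beside 12.2% of all genes, and 0 had an unadjusted p under 0.05. Ctnnb1, which encodes beta-catenin, read 8.49, 8.60 and 8.82 in the knockout, against 8.96, 8.84 and 8.98 in wild type. Its groups were narrowly apart, with a difference of -0.29 ± 0.13 (interval -0.59 to 0.0011, adjusted p = 0.190). Tcf7l1 and Tcf7l2, both TCF transcription factors, differed by 0.20 (interval -0.08 to 0.48) and -0.05 (interval -0.30 to 0.20). Tcf7l1 read 9.25, 9.20 and 9.04 in the knockout, against 9.08, 8.86 and 8.95 in wild type. Lef1, which lymphocytes also express, read 3.73, 3.74 and 2.61 in the knockout, against 2.88, 3.10 and 4.03 in wild type, with an interval from -0.87 to 0.91. T cell markers, which an inguinal lymph node would bring, averaged 3.71 to 4.03 in knockout arrays, against 3.72 to 4.11 in wild-type arrays.

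Feedback targets of beta-catenin signalling had lower values with mixed calls. Nkd2, which binds Dishevelled and dampens Wnt signals, measured 4.76, 4.18 and 4.65 in the knockout, against 5.65, 5.30 and 5.35 in wild type. It fell by 0.90 ± 0.18 (adjusted p = 0.0173), a call lost without wild type 1 (adjusted p = 0.0654). Nkd1, its relative, read 5.25, 5.30 and 5.25 in the knockout, against 6.08, 5.47 and 5.96 in wild type. Its groups did not overlap, and the difference of -0.57 ± 0.17 had an adjusted p of 0.0667. Nkd1 passed without wild type 2 (-0.75, adjusted p = 0.0169), with low genes left out and with array weights. Axin2, the scaffold protein most used as a readout of the pathway, read 6.35, 6.40 and 6.42 in the knockout, against 7.16, 6.81 and 6.45 in wild type. Wild type 3 lay almost at the knockout level, and the difference of -0.41 ± 0.18 did not pass (interval -0.83 to 0.0015, adjusted p = 0.190). A second probe set of Axin2 differed by -0.11 with overlapping groups (adjusted p = 0.826 when each probe set was tested). Procr, which marks Wnt-responsive basal stem cells and also endothelium, read 6.60, 7.07 and 6.90 in the knockout, against 7.31, 7.41 and 7.08 in wild type (-0.41 ± 0.16, adjusted p = 0.146).

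A further list of 68 pathway genes, of which 66 were measured, was also chosen with earlier results of these data known. It held 14 falls by limma (21.2%, beside 7.20% of all genes) and 0 rises (beside 5.05%). At an unadjusted p under 0.05, 19 of the 66 genes were lower and 5 higher. Their median difference was -0.19. Without wild type 1 the falls numbered 8, and without wild type 3 or knockout 2 they numbered 9. Apcdd1, a membrane Wnt inhibitor, differed by 0.46 ± 0.13 (adjusted p = 0.0567) and passed in 5 of the alternatives.

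Of 15 further secreted or surface modulators, 4 fell (26.7%, beside 7.20% of all genes). Dkkl1, a secreted relative of the Dickkopf proteins, measured 3.39, 3.37 and 4.00 in the knockout, against 6.56, 6.46 and 6.26 in wild type. That fall to 13.9% (-2.84 ± 0.19, adjusted p = 0.000288) was larger than any among the 49 genes. Tpbg, a surface protein that inhibits Wnt signalling in zebrafish, measured 4.71, 5.06 and 5.07 in the knockout, against 7.00, 6.60 and 6.18 in wild type (-1.65 ± 0.22, adjusted p = 0.00352). Sostdc1, a secreted modulator of Wnt and BMP signals, fell by 1.30 ± 0.15, and Trabd2b, a protease that cleaves Wnt proteins, by 0.80 ± 0.13.

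Of 11 planar polarity genes, 4 fell (36.4%, beside 7.20% of all genes). Ptk7, a co-receptor of this branch, measured 4.67, 4.25 and 4.61 in the knockout, against 6.14, 6.08 and 6.37 in wild type, with groups far apart (-1.68 ± 0.15, adjusted p = 0.000831). Celsr1 (-1.04 ± 0.24), Vangl1 (-0.76 ± 0.17) and Daam1 (-0.53 ± 0.12), a formin that binds Dishevelled, also fell. With 1 array left out, Celsr1 lost the call in 5 of 6 fits (adjusted p 0.0616 to 0.0965). Daam1 did so in 5 (0.0626 to 0.101) and Vangl1 in 4 (0.0549 to 0.0973). Blocking by replicate number also ended the calls of Vangl1 and Daam1, and centring arrays on their medians that of Daam1. Of 6 further targets, 3 fell (50%, beside 7.20% of all genes). Ccnd1, which encodes cyclin D1, measured 5.64, 6.10 and 6.46 in the knockout, against 8.43, 8.05 and 8.12 in wild type. It fell to 22.8% of wild type (-2.14 ± 0.22, adjusted p = 0.00124), with no overlap. Cd44, a hyaluronan receptor, fell by 1.20 ± 0.18, and Ccn4, a secreted matricellular protein, by 1.73 ± 0.20. The size of the Ccn4 fall is uncertain because its knockout level lies under the 33rd percentile. Myc differed by 0.02 (adjusted p = 0.964).

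Destruction complex, Dishevelled and kinase genes gave small differences. Of 9 destruction complex genes 0 passed, with differences from -0.28 to 0.17, and of 4 Dishevelled and kinase genes 0 passed, with differences from -0.19 to 0.04. Calls in either direction covered 12.2% of all genes, so 0 calls in sets this small is near that share. The groups did not overlap for 3 of the 9 and 1 of the 4, beside 32.7% of all genes. In both sets 0 genes had an unadjusted p under 0.05 in limma. Of 9 nuclear cofactors, 2 fell (22.2%, beside 7.20% of all genes). They were the co-repressor Tle2 (-0.59 ± 0.14, adjusted p = 0.0322) and Pygo1, which assists beta-catenin (-0.48 ± 0.12, adjusted p = 0.0384). Pygo1 lost the call with any 1 array left out (adjusted p 0.0590 to 0.111), and with arrays centred on their medians or blocked by replicate number. Tle2 lost it with any array but knockout 3 left out (adjusted p 0.0514 to 0.105), and with arrays centred on their medians. Among 10 further ligands only Ndp, described above, passed, and of the 2 ligand secretion genes 0 passed in limma, with 1 lower at an unadjusted p under 0.05.

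**Figure D4:**
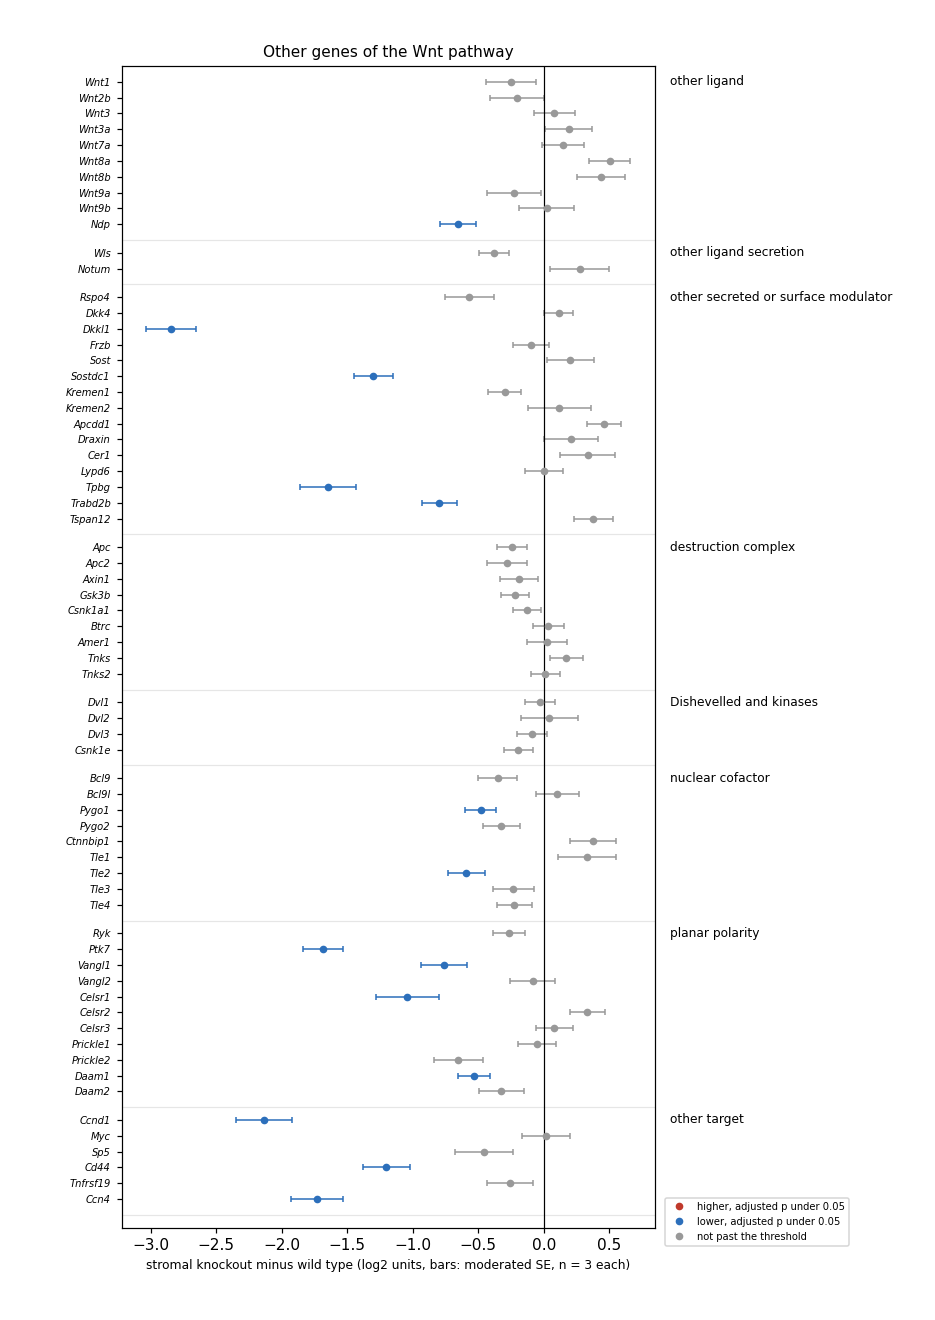
Difference between stromal knockout and wild type (horizontal axis, log2 units) for the 66 further pathway genes, grouped by role; points are fitted differences and bars the moderated standard error (n = 3 arrays each). Blue points (14 genes) fell, Dkkl1 the most at -2.84, and grey points did not pass the test.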

How the data were processed

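RNA (400 ng per sample) from 6 whole glands, 3 per group, was hybridised to Affymetrix arrays. The deposited values are log2 signals per probe set, made by the authors with RMA per the submitters' processing notes, which also name limma; no version is given in the sources used here. The logarithm's base was taken as 2, as RMA gives. The array number limits the precision. Of 41345 probe sets, 23521 had 1 gene symbol in the platform annotation, 1814 had several and 16010 were not listed; the probe set with the highest mean was kept for each of 22180 genes, so a gene's other probe sets enter only where named.

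Groups were compared with limma 3.58.1 (lmFit, eBayes; R 4.3.3) on all genes, with Benjamini-Hochberg adjustment and a threshold of 0.05. Intervals are 95% and use the moderated degrees of freedom. In data simulated on 22180 genes, 21980 were left unchanged. There 0 of 70 genes changed by 0.5 log2 units were called, 35 of 64 changed by 1 and 60 of 66 changed by 2, with 2 false calls. The simulated share of changed genes was far under the 12.2% called in the real data, which makes the adjusted threshold stricter. These counts therefore do not give the power of the real comparison. Group means under the 33rd percentile of gene levels were read as bounds. Alternatives were a filter on low genes, an intensity trend, plain and robust, array weights, repeated quantile normalization, arrays centred on medians, the mean of a gene's probe sets, every probe set tested, a replicate block, a 2-fold minimum, and each array left out. The labels call the arrays biological replicates. The members and lists were chosen with earlier results of these data known. Each gene past the threshold was named with its arrays, as were the 2 uncalled genes with the largest differences in each role; of the further pathway genes, those past the threshold were named, at most 4 per role.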

Additional observations from a re-analysis of the deposited data

How the results depend on the processing

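Of 19 called genes, 10 kept their call in each alternative without a fold minimum and with any 1 array left out (Wnt4, Fzd2, Fzd4, Ror1, Ror2, Sfrp1, Sfrp2, Sfrp4, Lgr5 and Rnf43), and 8 lost it without wild type 1. The 17 falls became 19 with array weights and 10 with a 2-fold minimum, and ranged from 10 (without wild type 1) to 17 with 1 array left out. The 2 rises became 1 with array weights, the replicate block, or a trend on intensity, plain or robust, 0 with a 2-fold minimum, 3 with arrays centred on their medians (Fzd8 added), and 1 to 2 with 1 array left out. The median difference of -0.28 became -0.19 with arrays centred on their medians, which moved the median of all genes from 0.03 to 0.12, and ranged from -0.39 to -0.22 with 1 array left out. The 14 falls among further pathway genes became 8 with a 2-fold minimum and 8 to 11 with 1 array left out; their 0 rises became 1 with low genes left out, array weights, or a plain or robust trend, and 2 with arrays centred on their medians. The cause of these shifts was not tested, except that a 2-fold minimum removes smaller changes by construction. Over 728 values of single genes under alternatives, 0 called values changed sign. Same-numbered arrays of the 2 groups did not deviate together (correlations -0.03, -0.05 and -0.03). These correlations gave no sign of a shared effect. With 3 arrays a group they cannot exclude one, nor that the numbers pair littermates. With the replicate block the counts were 14 falls and 1 rise, without Wnt5a (adjusted p = 0.0737), Wnt16 (0.0622), Fzd3 (0.0515) and Sfrp5 (0.0791), and 11 falls among further pathway genes. The Mmp14 difference ranged from -2.42 to -2.10 with 1 array left out.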
